A study of Mus musculus with 6 samples.

Results

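The genes described are the Wnt ligands, their receptors and their secreted antagonists, as expressed in epididymal fat under a normal and a high-fat diet. They were taken from the count table by gene symbol in the GENCODE M21 annotation: every protein-coding gene whose symbol begins with Wnt, Fzd, Sfrp, Dkk or Rspo followed by a digit, together with Frzb, Wif1, Lrp5, Lrp6, Ror1, Ror2, Ryk, Axin2 and Notum. This gave 50 genes of the 54532 gene identifiers in the table: 19 ligands, 4 R-spondins, 10 Frizzled receptors, 5 co-receptors, 6 genes for secreted Frizzled-related proteins (Frzb among them) and for Wif1, 4 Dickkopf proteins and 2 feedback genes. The rule used no expression value.

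Male C57BL/6J mice were fed a normal diet (ND, 4.5% fat) or a high-fat diet (HFD, D12492, 60% fat) from 4 weeks of age for 16 weeks. Whole epididymal fat, the visceral depot along the epididymis, was sequenced by RNA-Seq in 3 libraries per diet (ND1 to ND3 and HFD1 to HFD3), and none of these mice received a treatment other than the diet. The labels name the libraries only as separate samples of a diet, so the p-values measure the spread between these samples. In whole tissue, fewer cells of a type and less RNA per cell cannot be told apart.

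Wnt proteins are secreted lipid-modified ligands that bind a Frizzled receptor together with a co-receptor. With Lrp5 or Lrp6 as the co-receptor they stabilise β-catenin, which enters the nucleus and drives target genes such as Axin2. With Ror1, Ror2 or Ryk they signal without β-catenin. R-spondins raise the amount of Frizzled at the cell surface, and secreted Frizzled-related proteins and Wif1 capture the ligand outside the cell. Some Dickkopf proteins block Lrp5 and Lrp6. In adipose tissue β-catenin signalling is known for holding precursor cells back from becoming adipocytes, and Sfrp5 is known as a protein secreted by adipocytes.

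The libraries held between 16996896 and 18859320 counts, and 3 counts, used as the detection floor, corresponded to 0.150 to 0.181 CPM (counts scaled to the library size adjusted by edgeR's TMM method), which covers counting error only. ND3 stood apart by an epithelial signal: the 12 epithelial markers summed to 221 CPM there and to 10.3 to 15.0 CPM in the other libraries, with Cdh16 at 837 counts in ND3 and at 0 elsewhere. Adipocyte markers were high throughout, and 1 of the 15 (Lep) rose and 2 (Cfd and Retn) fell by edgeR's test. Of these 15, 7 had an unadjusted p under 0.05 by edgeR, DESeq2 called 7 and limma-voom 2. The sum of the adipocyte markers was lowest in HFD3 at 27039 CPM, against 40332 and 59188 CPM in HFD1 and HFD2 and 63256 to 80594 CPM on ND. Macrophage markers summed to 2023 to 2120 CPM on ND against 5749, 4465 and 9849 CPM on HFD, and 11 of the 15 rose by edgeR's test. HFD3 had the lowest CPM of all libraries in 15 of the 32 Wnt genes tested (46.9%, against 28.4% of all genes tested) and ND3 the highest in 12 (37.5%, against 18.5%). The part of these differences in the results below was not tested.

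Of the 50 genes, 32 had enough counts for the test. HFD was compared with ND over all 15751 such genes by edgeR's quasi-likelihood test, and a gene was called at a Benjamini-Hochberg adjusted p under 0.05. Among the 32 Wnt genes, Sfrp5 and Wif1 were higher on HFD, Sfrp1 and Rspo3 were lower, and 28 were not called. The 4 called are 12.5% of those tested, against 15.9% of all genes tested (9.85% higher and 6.04% lower). The median log2 fold change of the 32 was -0.29, against 0.01 over all genes, and 22 of them (68.8%) had a negative value, against 49.5% of all genes. In 14 of the 32 (43.8%) the CPM values of the diets did not overlap, against 40.9% of all genes. Of these, 5 were higher on HFD (Sfrp5, Wif1, Sfrp4, Fzd1 and Wnt11, against 21.7% of all genes) and 9 lower (Sfrp1, Rspo3, Fzd3, Fzd6, Lrp5, Ryk, Axin2, Wnt4 and Wnt5a, against 19.1%). At an unadjusted p under 0.05 there were 15 of the 32, against 34.0% of all genes. The shares of Wnt genes called and of Wnt genes without overlap were near those of all genes.

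The counts of Wnt genes called moved with single libraries and with the tool. There were 1 higher and 0 lower without ND1 (3.04% of all genes called) or HFD1 (2.93%), 1 and 2 without ND2 (3.63%), 2 and 0 without ND3 (6.24%), 2 and 1 without HFD3 (12.9%), and 3 and 7 without HFD2 (24.2%). DESeq2's Wald test gave 2 higher and 7 lower (19.1% of all genes called), limma-voom 2 and 4 (15.0%), and edgeR with the replicate number as a block 1 and 1 (12.0%). Limma on log2(FPKM + 1) gave 1 and 2 (14.7%), the same as with a pseudocount of 0.1 (14.7%), and without a filter 1 and 0 (2.27%). The filter of the FPKM fits, 0.5 in 3 libraries, left out Wif1, so that it was not tested there.

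**Figure D1:**
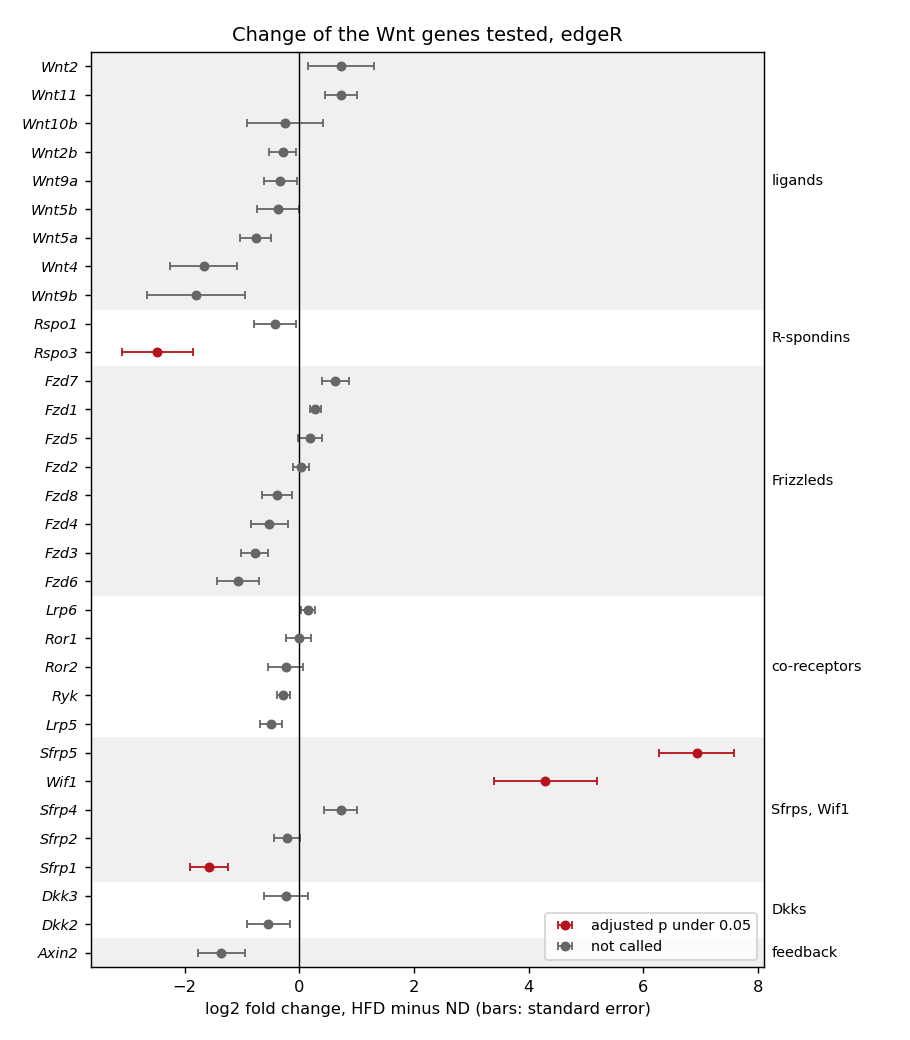
Log2 fold change (HFD minus ND, horizontal axis) of the 32 Wnt genes tested, by edgeR, grouped by role, with the standard error as bars. Only Sfrp5 at 6.93, Wif1 at 4.29, Sfrp1 at -1.57 and Rspo3 at -2.48 had an adjusted p under 0.05 (red), and the grey points lay between -1.80 and 0.73.

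Each gene that rose, Sfrp5 and Wif1, is a secreted antagonist that captures Wnt ligands. Sfrp5 lies on chromosome 19 of GRCm38 from 42197971 to 42202252 on the minus strand, and Wif1 on chromosome 10 from 121033960 to 121100650 on the plus strand. Their promoters are shown because these are the only Wnt genes called higher on HFD, each from 250 bases before to 50 bases after the start site in RefSeq, at chr19:42202203-42202502 on the minus strand and chr10:121033754-121034053 on the plus strand of GRCm38.p6. Both are written 5′ to 3′ along the gene, and capitals mark the GC box GGGCGG or its reverse complement CCGCCC.
Sfrp5: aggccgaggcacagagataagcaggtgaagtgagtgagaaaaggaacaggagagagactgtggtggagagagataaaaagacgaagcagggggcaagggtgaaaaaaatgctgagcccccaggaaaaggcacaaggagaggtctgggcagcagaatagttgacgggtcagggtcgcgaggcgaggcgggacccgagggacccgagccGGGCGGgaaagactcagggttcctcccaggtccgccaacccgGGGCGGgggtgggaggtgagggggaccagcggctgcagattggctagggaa
Wif1: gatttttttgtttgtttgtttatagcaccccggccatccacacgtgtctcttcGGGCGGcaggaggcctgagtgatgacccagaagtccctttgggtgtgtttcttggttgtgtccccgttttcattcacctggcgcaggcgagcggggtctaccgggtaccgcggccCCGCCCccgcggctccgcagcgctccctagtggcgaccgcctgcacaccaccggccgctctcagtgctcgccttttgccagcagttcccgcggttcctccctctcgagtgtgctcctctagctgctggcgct
The Sfrp5 window held 15 CpG dinucleotides at 61.3% GC and the Wif1 window 25 at 63.0% GC. Of the 50 Wnt genes, 33 had a promoter in the table, with 36 windows in all. Their median GC content was 68.3% and their median number of CpG dinucleotides 28, against 52.7% and 7 over the 32851 windows of all genes. A GC box stood in 28 of the 36 windows (77.8%, against 35.7% of all windows) on either strand. The TATA box letters TATAAA were found on either strand in 6 windows (16.7% against 13.6%), Wif1 included. The Wif1 match lay at -232 from the start, on the strand opposite to the one printed. The TCF/LEF letters CTTTGAA or CTTTGAT, the form read by the nuclear partners of β-catenin, were found in 3 windows (8.33% against 8.65%), belonging to Dkk1, Wnt11 and Wnt5b, and the nuclear receptor letters AGGTCA in 2 (5.56% against 16.3%), belonging to Frzb and Wnt16. All these letters were searched on both strands, and a match describes the letters only.

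Sfrp5 was the Wnt gene with the largest change. Its counts were 58, 17 and 93 in ND1 to ND3 and 6776, 8720 and 3196 in HFD1 to HFD3. Every HFD library was far above every ND library, with HFD3 the lowest of the HFD libraries. Mean CPM rose from 2.92 ± 1.84 to 360 ± 171 (SD, n = 3 per diet), a log2 fold change of 6.93 with a standard error of 0.65 (edgeR's quasi-likelihood test, adjusted p = 0.00395). By size of increase it stood at place 27 of the 15751 genes tested. On the FPKM scale, which divides by gene length and so allows genes to be compared, Sfrp5 was at 1.68, 0.529 and 2.46 on ND against 196, 278 and 97.1 on HFD. Among 21918 protein-coding genes it moved from places 10322, 12100 and 9700 on ND to places 207, 139 and 519 on HFD, and it was first among the 50 Wnt genes in each HFD library. The gene was called without any 1 of the 6 libraries, at log2 fold changes between 6.53 and 7.40.

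Sfrp5 rose, while the summed CPM of the adipocyte markers was lower in the HFD libraries. That sum includes large falls in mean CPM of Cfd (13600 to 1280) and Car3 (17200 to 7050). The median log2 fold change of the 15 markers was -0.52, with Cidec at -0.08, Plin4 at 0.03 and Lep at 1.38. Relative to the adipocyte hormone gene Adipoq (log2 fold change -0.52, adjusted p = 0.457), Sfrp5 had 0.952, 0.259 and 1.65 counts per 1000 Adipoq counts on ND against 179, 137 and 178 on HFD. The HFD libraries lay close together on this ratio, whereas their Adipoq counts were 37840, 63637 and 17917. Other adipocyte markers differed between the HFD libraries in other proportions. Lep had 46999, 53347 and 39215 counts in HFD1 to HFD3, and Cfd had 21227, 41576 and 2820. Ratios to these markers were not taken. The part of adipocyte content in the rise of Sfrp5 was not tested. Relative to Wnt5a, a ligand that Sfrp5 is known to bind, the ratio of FPKM values was 0.274, 0.0827 and 0.464 on ND against 62.0, 55.6 and 42.7 on HFD. Sfrp5 was below Wnt5a in FPKM in every ND library and above it in every HFD library.

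**Figure D2:**
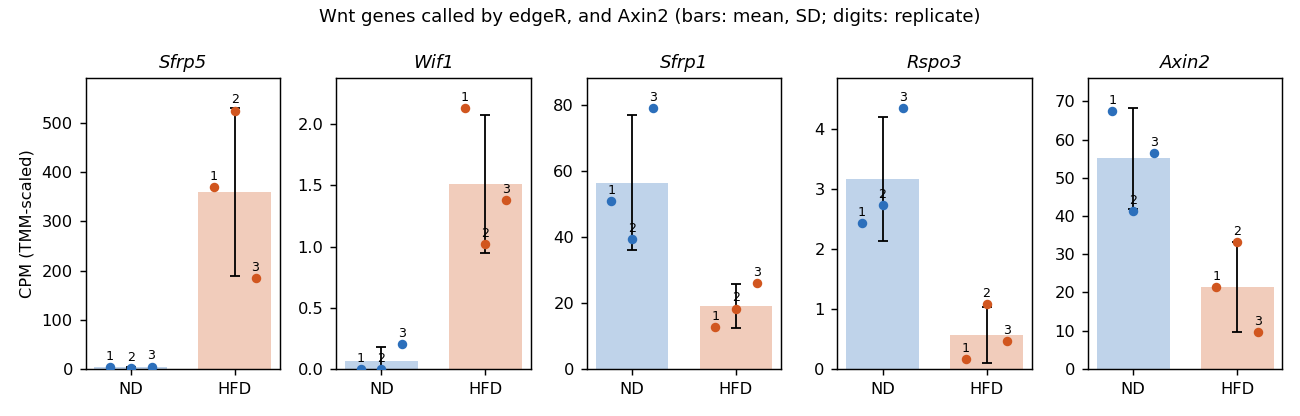
CPM of the 4 Wnt genes called and of Axin2 on each diet, with bars for the mean, error bars for the SD over 3 libraries and digits for the replicate. The diets did not overlap in any panel, and Wif1 and Rspo3 stayed under 5 CPM in every library while Sfrp5 reached 525 CPM in HFD2.

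Wif1, whose product binds Wnt ligands through its own WIF domain, was a low gene on both diets. Its counts were 0, 0 and 4 on ND against 39, 17 and 24 on HFD. The HFD libraries did not overlap the ND libraries, of which 2 had no count. Mean CPM was 0.0666 ± 0.115 on ND and 1.51 ± 0.565 on HFD (SD, n = 3 per diet), with a log2 fold change of 4.29 and a standard error of 0.90 (edgeR's quasi-likelihood test, adjusted p = 0.0231). Since 2 ND libraries were at 0, the fitted fold change depends on the prior count edgeR adds. The call was lost without ND1 (adjusted p = 0.0790), ND2 (0.0775) or HFD1 (0.0950). Without ND3, which held all 4 ND counts, the fitted log2 fold change was 7.73 (0.0352).

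Sfrp1, the antagonist with the highest mean FPKM on ND, fell where Sfrp5 rose. It lies on chromosome 8 from 23411502 to 23449632 on the plus strand, and its counts were 942, 680 and 1584 on ND against 234, 304 and 453 on HFD. All HFD values were below all ND values, with ND3 the highest. Mean CPM was 56.5 ± 20.5 on ND and 19.1 ± 6.68 on HFD (SD, n = 3 per diet), and the log2 fold change was -1.57 with a standard error of 0.33 (edgeR's quasi-likelihood test, adjusted p = 0.0238). Without ND3 it was -1.28 with an adjusted p of 0.0570, and the call was also lost without ND1 (0.0686) or HFD1 (0.0827). The progenitor and fibroblast markers summed to 5469, 6235 and 5776 CPM on ND against 4876, 4049 and 7384 CPM on HFD, where 2 of the 15, Anxa3 and Icam1, rose and none fell. The mesothelial markers summed to 363, 279 and 509 CPM on ND against 373, 344 and 204 CPM on HFD, with none of the 11 called by edgeR (1 at an unadjusted p under 0.05, and 0 by DESeq2 or limma-voom).

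The remaining genes of this group were not called. Sfrp4 had counts of 161, 181 and 100 on ND against 209, 212 and 270 on HFD. Its diets did not overlap, with a log2 fold change of 0.72 and an adjusted p of 0.128. Sfrp2, with 18.3 to 24.8 CPM on ND against 12.7 to 21.6 CPM on HFD, was at a log2 fold change of -0.21, with an adjusted p of 0.551. Frzb had too few counts for the test, and HFD3 alone held 55 of its 104 counts.

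The makeup of the secreted Frizzled-related proteins and Wif1 changed with the diet. Their summed FPKM was 27.8, 21.6 and 30.6 on ND against 213, 295 and 114 on HFD. Sfrp5 made up 6.04%, 2.45% and 8.03% of that sum on ND against 92.1%, 94.2% and 85.0% on HFD. Without Sfrp5 the sum of the others was 25.1 ± 3.63 on ND and 17.0 ± 0.191 on HFD (SD, n = 3 per diet), and the diets did not overlap. Sums over genes were given no test.

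**Figure D3:**
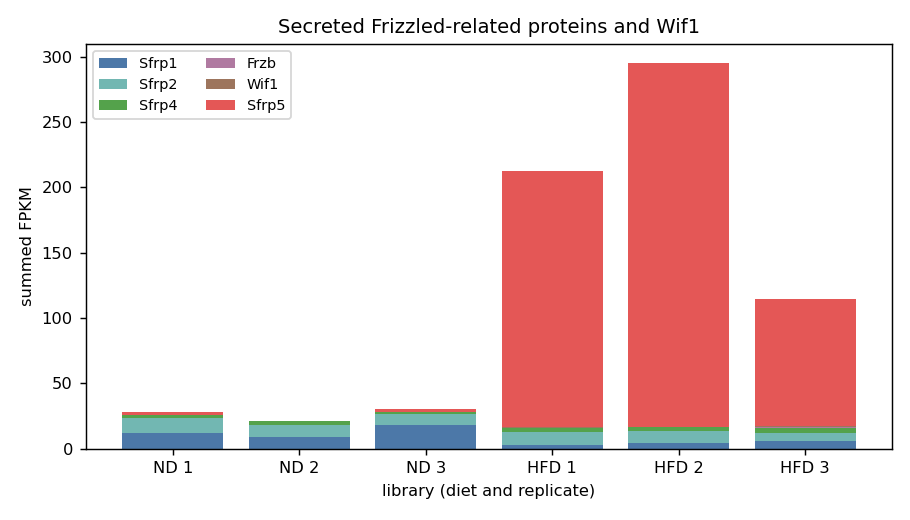
Summed FPKM of the secreted Frizzled-related proteins and Wif1 in each of the 6 libraries, stacked by gene. Sfrp1 and Sfrp2 filled most of the ND bars, which stood between 21.6 and 30.6, and Sfrp5 filled most of the HFD bars, which stood between 114 and 295.

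The 19 ligands were low in this tissue, and edgeR called none (3 had an unadjusted p under 0.05, DESeq2 called Wnt5a and Wnt6, and limma-voom 0). Their summed FPKM was 19.5 ± 2.95 on ND and 14.9 ± 4.02 on HFD (SD, n = 3 per diet). Of the 19, 9 were tested, and 5 (Wnt3, Wnt3a, Wnt7a, Wnt8a and Wnt16) had no count in any library. Wnt5a, best known for signalling without β-catenin, had the highest mean FPKM of the ligands over all 6 libraries and made up 24.3% to 39.6% of their sum on ND against 20.9% to 26.6% on HFD. On HFD alone the mean FPKM was 3.66 ± 0.83 for Wnt2b against 3.48 ± 1.39 for Wnt5a (SD, n = 3), a difference smaller than the spread between libraries. The counts of Wnt5a were 873, 846 and 825 on ND against 450, 646 and 308 on HFD. The ND libraries were alike and all above the HFD libraries, of which HFD3 was the lowest. The log2 fold change was -0.76 with a standard error of 0.27 (edgeR's quasi-likelihood test, adjusted p = 0.0955).

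Wnt9b had the largest fitted change of the ligands at -1.80 (standard error 0.85, adjusted p = 0.182). Its counts were 11, 11 and 33 on ND against 2, 11 and 1 on HFD, so that HFD2 equalled ND1 and ND2. Wnt4, which signals in the development of the gonad and kidney, had 43, 27 and 67 counts on ND against 26, 8 and 6 on HFD. The diets did not overlap in CPM, by a narrow margin between ND2 and HFD1, and its log2 fold change was -1.67 (adjusted p = 0.0919). Wnt11, another ligand best known for signalling without β-catenin, went the other way with 127, 102 and 149 counts on ND against 182, 257 and 136 on HFD. Its CPM values did not overlap, at 5.92 to 7.45 on ND against 7.83 to 15.5 on HFD, with a log2 fold change of 0.72 (adjusted p = 0.116).

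Wnt10b, known for holding preadipocytes back from differentiation, had 67, 28 and 46 counts on ND against 35, 65 and 9 on HFD. The values crossed between the diets, with the highest CPM in HFD2 and the lowest in HFD3, and the log2 fold change was -0.25 with a standard error of 0.67 (adjusted p = 0.821). Wnt2 (0.73), Wnt2b (-0.29), Wnt9a (-0.33) and Wnt5b (-0.37) overlapped between the diets and had adjusted p-values of 0.413 or more. Among the ligands not tested, Wnt6 had the most counts, at 33, 5 and 79 on ND against 5, 4 and 4 on HFD. All HFD values of Wnt6 were below the ND values, though ND2 was closer to them than to ND1 or ND3, and ND3 held 60.8% of the total. Wnt7b and Wnt8b, also not tested, had totals of 36 and 30 counts.

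Several ligand genes lie in adjacent pairs, and in each pair 1 gene held nearly all the counts. Wnt10b and Wnt1, 11.7 kb apart on chromosome 15, had 250 and 5 counts over the 6 libraries. Wnt6 and Wnt10a, 6.19 kb apart on chromosome 1, had 130 and 2. Wnt9a had 865 counts and its neighbour Wnt3a, 16.2 kb away on chromosome 11, had 0, and Wnt9b had 69 where Wnt3, 24.3 kb away, had 0.

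**Figure D4:**
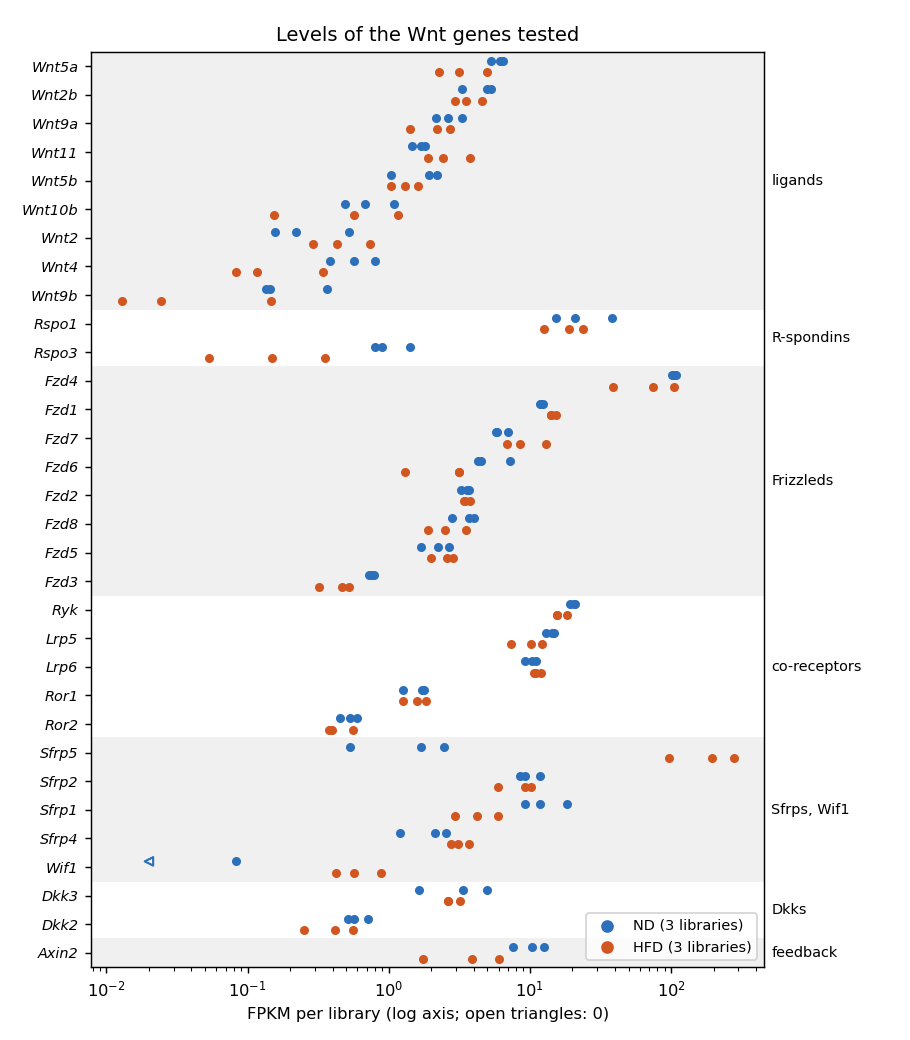
FPKM of the 32 Wnt genes tested in each library on a log axis, grouped by role and ordered by mean level within a role, with an open triangle for a value of 0. Fzd4 stood between 39.0 and 108 FPKM in all libraries, Sfrp5 moved from at most 2.46 on ND to at least 97.1 on HFD, and the ligands stayed under 10 FPKM.

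R-spondins bind Lgr receptors and keep the ligases Znrf3 and Rnf43 from removing Frizzleds. Rspo3, on chromosome 10 from 29452416 to 29535867 on the minus strand, was called lower on HFD. Its counts were 45, 47 and 87 on ND against 3, 18 and 8 on HFD. All HFD values were below the ND values, with HFD1 at the detection floor. Mean CPM was 3.17 ± 1.03 on ND and 0.570 ± 0.470 on HFD (SD, n = 3 per diet), with a log2 fold change of -2.48 and a standard error of 0.62 (edgeR's quasi-likelihood test, adjusted p = 0.0377). Leaving out any library other than HFD2 raised the adjusted p to between 0.0773 and 0.0964, at log2 fold changes of -2.64 to -2.06. Without HFD2 it was -3.32 with an adjusted p of 0.00960.

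Rspo1 was the main R-spondin of the tissue, with 94.0% to 96.4% of the summed FPKM of the 4 genes on ND against 98.1% to 99.6% on HFD. Its counts were 733, 503 and 1473 on ND against 838, 604 and 423 on HFD. ND3 was far above the other libraries and the diets overlapped, with a log2 fold change of -0.42 (adjusted p = 0.460) that was 0.01 without ND3. Rspo2 and Rspo4 had totals of 3 and 9 counts and were not tested.

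The endothelial markers, given here because Rspo3 is known from vessel cells, summed to 1734, 1781 and 1503 CPM on ND against 1689, 1509 and 835 CPM on HFD, with none of the 10 called by edgeR (2 at an unadjusted p under 0.05, 1 by DESeq2 and 0 by limma-voom). The mural cell markers summed to 1050, 932 and 899 CPM on ND against 601, 646 and 402 CPM on HFD, and 2 of the 10, Rgs5 and Cnn1, fell by edgeR's test. Of these 10, 6 had an unadjusted p under 0.05 by edgeR, DESeq2 called 5 and limma-voom 2. The part of these cells in the fall of Rspo3 was not tested.

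Among the Frizzled receptors Fzd4, a receptor for Wnt ligands and for Norrin, was by far the most abundant. It made up 74.7% to 76.3% of the summed FPKM of the 10 Frizzleds on ND against 67.8%, 75.6% and 50.6% on HFD, and was first among all 50 Wnt genes in the ND libraries and second, after Sfrp5, in the HFD libraries. Its counts were 12806, 12283 and 13534 on ND against 9066, 11571 and 4540 on HFD. The raw counts were lower in all HFD libraries, but the CPM of HFD2 at 697 lay between the ND values of 676 and 712. The log2 fold change was -0.52 with a standard error of 0.33 (edgeR's quasi-likelihood test, adjusted p = 0.312). No Frizzled was called by edgeR, 4 had an unadjusted p under 0.05, DESeq2 called Fzd3 and Fzd6, and limma-voom called Fzd3.

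Fzd6 had the largest change among the Frizzleds. Its counts were 378, 365 and 694 on ND against 276, 248 and 109 on HFD, with ND3 the highest, HFD3 the lowest and no overlap. The log2 fold change of -1.07 with a standard error of 0.37 did not pass the test (adjusted p = 0.0876). Fzd3, which like Fzd6 is known for planar cell polarity, had 176, 157 and 200 counts on ND against 108, 111 and 71 on HFD. It did not overlap either, with a log2 fold change of -0.78 and an adjusted p of 0.0574. Fzd1 did not overlap in the other direction, at 48.3 to 51.3 CPM on ND against 58.5 to 64.4 CPM on HFD, a log2 fold change of 0.28 (adjusted p = 0.103).

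Fzd7 stood at a log2 fold change of 0.63 with an adjusted p of 0.111, and its CPM was 25.7 to 30.9 on ND against 30.9 to 58.4 on HFD, with ND2 and HFD2 alike and HFD3 the highest. Fzd8 (-0.39), Fzd5 (0.19) and Fzd2 (0.03) overlapped between the diets. Fzd2 was the most even of the Frizzleds, at 11.7 to 13.3 CPM on ND against 12.4 to 13.7 CPM on HFD. Fzd9 and Fzd10 had totals of 25 and 46 counts and were not tested. The summed FPKM of all Frizzleds was 138 ± 3.19 on ND and 108 ± 30.5 on HFD (SD, n = 3 per diet), a difference within the spread of the HFD libraries.

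The 5 co-receptors were all tested, and edgeR, DESeq2 and limma-voom called none (2 had an unadjusted p under 0.05 by edgeR). Ryk, an atypical receptor tyrosine kinase that binds Wnt ligands, had the highest mean FPKM of the co-receptors, at 19.2 to 20.7 on ND against 15.6 to 18.2 on HFD. Its counts were 1579, 1575 and 1867 on ND against 1286, 1362 and 1225 on HFD, with a log2 fold change of -0.28 and an adjusted p of 0.136. Lrp5 had 2533, 2416 and 2527 counts on ND against 1798, 1965 and 1237 on HFD, with a log2 fold change of -0.49 and an adjusted p of 0.119. In each of these genes all HFD libraries lay below all ND libraries.

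Lrp6, the other co-receptor for β-catenin signalling, had 2297, 2538 and 2839 counts on ND against 2752, 2697 and 2535 on HFD. These overlapped, with a log2 fold change of 0.15 and an adjusted p of 0.428. The receptor tyrosine kinases Ror1 (-0.01) and Ror2 (-0.24), known as receptors for Wnt5a, overlapped as well, with adjusted p-values of 0.980 and 0.628.

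The genes of the Dickkopf proteins, some of which bind Lrp5 and Lrp6 at the cell surface, were low. Dkk3, a divergent family member for which no such binding is claimed here, made up 76.2% to 91.3% of their summed FPKM. That sum was 3.96 ± 1.83 on ND and 3.22 ± 0.478 on HFD (SD, n = 3 per diet). Its counts were 205, 93 and 335 on ND against 161, 178 and 152 on HFD, so that the HFD libraries lay between the ND libraries, and the log2 fold change was -0.23 (adjusted p = 0.699). Dkk2 had 38, 32 and 53 counts on ND against 28, 34 and 16 on HFD, with a log2 fold change of -0.54 (adjusted p = 0.353). Neither had an unadjusted p under 0.05 or was called by DESeq2 or limma-voom. Dkk1 had no count in any library, and Dkk4 had 2, both in ND3.

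Axin2 encodes a scaffold of the complex that marks β-catenin for degradation and is a target gene of β-catenin, so its level is widely used as a readout of the pathway. Its counts were 1251, 711 and 1131 on ND against 391, 552 and 168 on HFD. All HFD values were below all ND values, with HFD3 the lowest. Mean CPM was 55.1 ± 13.2 on ND and 21.4 ± 11.8 on HFD (SD, n = 3 per diet), and the log2 fold change of -1.36 with a standard error of 0.41 did not pass edgeR's quasi-likelihood test (adjusted p = 0.0644). DESeq2's Wald test called it (adjusted p = 0.00623), as did limma-voom (0.0455) and edgeR without HFD2 (0.0151). These were 3 of 17 alternatives. The others did not call it, with an adjusted p of up to 0.207 (edgeR without the filter).

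Notum encodes an enzyme that removes the lipid from Wnt ligands and is also induced by the pathway. It had 1, 0 and 76 counts on ND and 0 in each HFD library. ND3, the library with the epithelial signal, held 98.7% of its counts, and the gene was not tested. Wnt7b and Wnt6 also had more than 50% of their counts in ND3, at 52.8% and 60.8%.

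Several Wnt genes share exon sequence with a gene on the opposite strand: Sfrp2, Wnt5a, Wnt7b, Wnt11, Fzd5, Fzd6, Rspo3, Axin2 and Notum. Neither the labels nor the methods say whether the counting used strand, so the reads of each pair may not be separable. Sfrp5, Wif1 and Sfrp1 had no such overlap.

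The other genes of the pathway were read from the same test. Of 125 genes in 5 lists, 113 were tested, 13 rose, 4 fell and 96 were not called. That is 15.0% of those tested, against 15.9% of all genes, and 43.4% had diets without overlap, against 40.9%. The median log2 fold change was -0.04. Without 1 library the numbers that rose and fell were 3 and 0 (ND1), 3 and 1 (ND2), 3 and 2 (ND3), 2 and 0 (HFD1), 16 and 11 (HFD2) and 7 and 3 (HFD3).

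Over all genes tested, 9.85% rose and 6.04% fell. Among the genes that act with the ligand at the cell surface or in its secretion, 1 of 16 tested rose, 2 fell and the median log2 fold change was -0.40. Tpbg, which encodes an inhibitor of Wnt signalling at the membrane, rose (2.02). Trabd2b, for an enzyme that cleaves Wnt ligands, and Gpc4, for a heparan sulfate proteoglycan, fell (-1.09 and -0.73). In the cytoplasmic chain 1 of 28 rose, none fell and the median was -0.05. The gene that rose there was Nkd1 (1.03), whose product binds Dishevelled and restrains the pathway, with 412, 541 and 512 counts on ND against 1032, 1091 and 688 on HFD. Among nuclear factors 1 of 20 rose, the co-repressor gene Tle4 (1.05), none fell and the median was -0.05.

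Of the genes listed as targets of β-catenin, 6 of 20 rose, none fell and the median log2 fold change was 0.33, where 9.85% of all genes tested rose. These were the hyaluronan receptor gene Cd44 (2.92), the bone transcription factor gene Runx2 (2.55), the matricellular genes Ccn5 (2.25) and Ccn2 (0.76), Myc (1.07) and Nkd1, which is in both lists. Cd44 had 649, 734 and 597 counts on ND against 4833, 2153 and 7317 on HFD, and its HFD libraries stood in the same order as the sum of macrophage markers, with HFD3 highest and HFD2 lowest. The HFD libraries of Runx2, Myc and Ccn2 stood in that order too, and those of Ccn5 and Nkd1 did not. Cd44 is also expressed by macrophages, and their part in these rises was not tested. Axin2 had a log2 fold change of the opposite sign. Of 14 targets not called, Apcdd1 (-1.0), Bambi (-0.78), Znrf3 (-0.76), Tbx3 (-0.6), Tcf7 (-0.48), Twist1 (-0.36), Fst (-0.17) and Id2 (-0.02) were negative. Fosl1 (0.87), Nrcam (0.8), Jun (0.62), Ccn4 (0.6), Ccnd1 (0.05) and Vcan (0.04) were positive. Of the planar cell polarity and calcium branch, 5 of 33 rose and 2 fell, where 9.85% and 6.04% of all genes tested did. The median of this branch was -0.10. Camk2a (1.98), for a calcium-dependent kinase, and Plcb2 (1.38), for a phospholipase C, were among those that rose, and Celsr2, a cadherin gene of planar cell polarity, fell (-2.32) from 459, 408 and 814 counts on ND to 112, 147 and 51 on HFD. Plcb3, for another phospholipase C, also fell (-0.36). Nkd1 and Ccn2 were named after their values were seen, to complete their lists, and so were the targets not called.

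**Figure D5:**
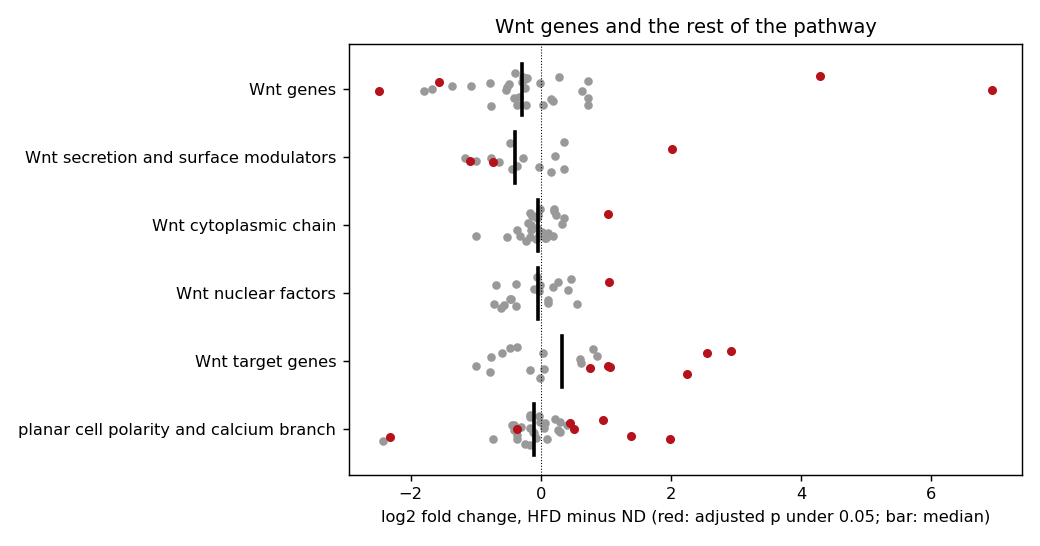
Log2 fold change (HFD minus ND, horizontal axis) of the Wnt genes and of 5 lists of other pathway genes, by edgeR, 1 point a gene, with a bar for the median and red for an adjusted p under 0.05. The medians lay between -0.40 for the surface modulators and 0.33 for the target genes, and the Wnt genes had the widest range, from -2.48 to 6.93.

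The genes lying near Sfrp5, Sfrp1 and Rspo3 were read from the same test. Within 500 kb of Sfrp5, 20 other genes were tested, and 5 rose and 1 fell, where 9.85% of all genes tested rose and 6.04% fell. Their median log2 fold change was 0.18. The largest rises were Crtac1, 80.8 kb away, with 22, 30 and 66 counts on ND against 1314, 1412 and 684 on HFD (log2 fold change 4.96), and Golga7b, 45.3 kb away, with 18, 14 and 11 on ND against 168, 234 and 159 on HFD (3.79). As in Sfrp5, HFD2 had the highest count and HFD3 the lowest HFD count in both. In Golga7b, however, HFD1 and HFD3 were nearly equal, at 168 and 159 counts. The other genes that rose, Pi4k2a, Ubtd1 and Arhgap19, had the opposite order, with HFD3 highest and HFD2 the lowest HFD library. Zfyve27, the nearest of the genes tested at 3.38 kb, was at 0.15 on the log2 scale, with an adjusted p of 0.340. The gene called lower was Frat1 (-1.29), 365 kb away, whose product binds the kinase GSK3 of the same pathway. Morn4, 112 kb away, had a larger fitted fall (-2.14) but was not called by edgeR, at an adjusted p that rounds to 0.05. These neighbours were named after their values were seen.

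Of 5 genes tested around Sfrp1, Gpat4 fell, where 6.04% of all genes tested fell. None of 6 around Rspo3 was called by edgeR, DESeq2 or limma-voom, and 0 had an unadjusted p under 0.05.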

How the data were processed

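The sample labels gave the diet and the replicate number of each library, and the paper's methods gave the composition and length of the diets. The Wnt genes, the lists and the tests were chosen with earlier results of these data known.

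The authors deposited raw counts per gene without normalization and FPKM values for the same libraries. The paper names GRCm38 with TopHat and Cufflinks, whereas the submitters' processing notes list CASAVA 1.8, fastp, HISAT2 2.0.5 and featureCounts 1.5.0-p3, with the human builds GRCh38 and hg38. The identifiers are those of mouse genes. Symbols, coordinates and biotypes came from GENCODE M21 on GRCm38, and the promoter windows from RefSeq on GRCm38.p6.

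Counts were tested in R 4.3.3 with edgeR 4.0.16. Low genes were removed by filterByExpr, libraries were scaled by TMM, and glmQLFit (robust=TRUE) was fitted on diet alone. P-values were adjusted by Benjamini and Hochberg's method over all genes tested, with a threshold of 0.05. Standard errors were taken from the F statistic. An exact permutation test of 3 against 3 gives p = 0.1 at the least and was not run. FPKM was used to compare levels between genes and, summed over the genes of a role, with no test. Depth was between 16996896 and 18859320 counts.

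The genes named are those called, the gene with the highest mean FPKM and the one with the largest change in each role, those whose diets did not overlap, and up to 8 called genes in each direction of the other pathway genes. The lists were 5 of pathway genes and 8 of cell markers, of which the 10 lymphocyte markers (summed CPM 23.5, 32.2 and 23.8 on ND and 38.3, 27.6 and 21.7 on HFD, none called by edgeR, DESeq2 or limma-voom and 0 at an unadjusted p under 0.05) and the 12 epithelial markers (3 of 12 tested, none called by edgeR, 1 at an unadjusted p under 0.05, 1 by DESeq2 and 0 by limma-voom) gave no further result. The alternatives were DESeq2 1.42.0, limma-voom and limma on log2(FPKM + 1) or log2(FPKM + 0.1) (limma 3.58.1), other scalings and filters, robust=FALSE, a minimum log2 fold change of 1, the replicate number as a block, and each library left out. The genes around Wif1 are not reported here.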

Additional observations from a re-analysis of the deposited data

How the results depend on the processing

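Sfrp5 was called higher on HFD under each of the 17 alternatives in which it was tested, at log2 fold changes of 6.18 to 7.40 and adjusted p-values of 3.46e-20 to 0.0337. Sfrp1 was called in 13 of 17, Rspo3 in 10 of 17 and Wif1 in 10 of 15. The main counts were 2 Wnt genes higher and 2 lower, and 13 other pathway genes higher and 4 lower. DESeq2 gave 7 Wnt genes lower (adding Axin2, Fzd3, Fzd6, Wnt5a and Wnt6) and 9 pathway genes lower, with 19.1% of all genes called. Limma-voom gave 4 Wnt genes lower (adding Axin2 and Fzd3) and 2 pathway genes lower. Limma on FPKM with a pseudocount of 1 or 0.1 gave 1 Wnt gene and 7 pathway genes higher, and without the filter 1 and 2 higher and 0 of either lower. Wif1 was not tested in the filtered fits on FPKM. Requiring also a change of 1 or more on the log2 scale left 2 pathway genes lower. With 1 library left out, the Wnt genes higher ranged from 1 to 3 and lower from 0 to 7, and the pathway genes from 2 to 16 and from 0 to 11. HFD2 was the library without which most were called (3940 genes of all), and HFD1 the one without which fewest were (474).

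The replicate number was tried as a block. Same-numbered libraries come from different mice and did not deviate together (correlations -0.0858, -0.0556 and -0.00532), so the numbers do not pair the samples. With the replicate block, 1 Wnt gene was higher (Sfrp5) and 1 lower (Sfrp1), 7 pathway genes were higher and 3 lower, and 1886 of all genes were called, against 2504. Wif1 and Rspo3 had adjusted p-values of 0.0531 and 0.0544 there.

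The sign of 5 genes that were not called turned when 1 library was left out. Over the libraries left out, Dkk3 ranged from -0.56 to 0.16 and Rspo1 from -0.68 to 0.01, both positive without ND3. Fzd2 ranged from -0.05 to 0.06 (-0.02 without ND2 and -0.05 without HFD1). Ror1 ranged from -0.16 to 0.13 (0.08 without ND1, 0.02 without ND3 and 0.13 without HFD2), and Wnt10b from -1.04 to 0.19 (0.10 without ND1 and 0.19 without HFD3). The causes were not tested. The summed FPKM of each role used the deposited FPKM values without TMM scaling. Of the 50 genes, 18 had too few counts to be tested, 6 of them with no count in any library.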
